A study of Rattus norvegicus with 9 samples.

Results

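The dystrophin glycoprotein complex links the actin cytoskeleton of a muscle fibre to the basement membrane. It was followed here through 8 genes chosen by name: Dmd, Utrn, Dag1, Sgca, Sgcb, Sgcd, Sntb1 and Dtna. The platform's annotation gives 5 of them a probe set, namely Dmd, Utrn, Sgca, Sgcd and Sntb1, each with a single one, out of 14506 genes in all. Dag1, Sgcb and Dtna are not analysed here. Transcripts of the tibialis anterior muscle (TIB) were measured on 9 arrays, each of 1 male rat of the Sprague Dawley strain. The rats were 10 weeks old when purchased and were fed a standard diet for at least 1 week. They then either stayed fed until sampling (Fed, 3 rats), were fasted until phase 2 (P2, 3 rats), when body proteins are spared, or were fasted until phase 3 (P3, 3 rats), when they are mobilized. Water was given throughout, and P2 and P3 were told apart from the daily rate of body mass loss. The question asked of these genes is whether their transcripts change as the muscle enters each phase. Values are log2 intensities as deposited. Replicate numbers name the rats, from Fed 1 to P3 3.

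In the complex, dystrophin binds actin inside the fibre and dystroglycan in the membrane, and dystroglycan in turn holds laminin outside. Sarcoglycans and sarcospan form a subcomplex in the membrane beside dystroglycan, and syntrophins and dystrobrevins are cytoplasmic adaptors that bring signaling proteins such as neuronal nitric oxide synthase to dystrophin. Utrophin is a relative of dystrophin that is concentrated at the neuromuscular junction. Loss of dystrophin, of α-sarcoglycan or of δ-sarcoglycan leaves the membrane fragile and causes muscular dystrophy.

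Arrays were alike in their overall level, with medians between 5.80 and 5.90. The rat P2 1 stood apart from the other fasted rats in P2 on component 2 of a principal component analysis of all probe sets, at -34.89 against -13.28 for P2 2 and -16.80 for P2 3, and component 2 held 9.69% of the variance. Where leaving out P2 1 changed a call of a gene of the complex or moved a member's value strongly, the value without it is given too. Of 7 measured markers of fast fibres, the main fibres of this muscle, none passed limma, be it P2 or P3 that was set against Fed (1 was lower in each at an unadjusted p under 0.05). Their summed linear intensity was 81369 to 82562 in Fed, 78714 to 80106 in P2 and 73933 to 76916 in P3. Whole muscle was extracted, so fewer cells of a type and less RNA per cell cannot be told apart.

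The sequence before the transcription start was read for the members whose transcripts fell in P3, since their values are set side by side here. RefSeq windows on the rat build GRCr8 of 300 bases, 250 before and 50 after an annotated start, were found for Sgca and Sgcd, both on the minus strand of chromosome 10 (chr10:80416026-80416325 and chr10:32254891-32255190). None was found for Sntb1. A window of Dmd, whose transcript was not called, is shown for comparison (plus strand, chrX:51205836-51206135). Capitals mark each E-box, CANNTG, the site that myogenic factors of the MyoD family bind among other proteins; it reads the same on both strands.
Sgca: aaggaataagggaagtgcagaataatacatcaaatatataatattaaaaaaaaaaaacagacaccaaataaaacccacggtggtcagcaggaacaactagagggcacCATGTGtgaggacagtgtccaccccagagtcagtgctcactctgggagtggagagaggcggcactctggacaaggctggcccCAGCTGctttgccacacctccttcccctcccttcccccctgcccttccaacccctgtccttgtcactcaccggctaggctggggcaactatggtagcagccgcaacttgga
Sgcd: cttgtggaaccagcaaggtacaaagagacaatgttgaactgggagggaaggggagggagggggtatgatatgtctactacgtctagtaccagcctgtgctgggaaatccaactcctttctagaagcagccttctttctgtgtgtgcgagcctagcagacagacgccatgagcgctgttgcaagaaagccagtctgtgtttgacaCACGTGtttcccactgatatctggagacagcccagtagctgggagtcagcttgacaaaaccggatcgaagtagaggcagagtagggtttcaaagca
Dmd: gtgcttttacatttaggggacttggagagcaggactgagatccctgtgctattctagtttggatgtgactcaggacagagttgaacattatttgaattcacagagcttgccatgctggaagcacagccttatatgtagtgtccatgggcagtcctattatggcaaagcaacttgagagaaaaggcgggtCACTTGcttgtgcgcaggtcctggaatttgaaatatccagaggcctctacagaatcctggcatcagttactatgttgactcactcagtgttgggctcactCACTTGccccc
Sgca held 2 E-boxes, Sgcd 1 and this window of Dmd 2, and 72.1% of 33469 such windows held at least 1. AGAACA, a half-site of the glucocorticoid receptor, was found in 20.7% of all windows, and GTAAACA, the core motif of FOXO factors, in 3.78%. Neither was present on either strand of the windows of Sgca, Sgcd and Dmd printed above. The window of Utrn and those of both later Dmd starts, which overlap each other, held no E-box, no AGAACA and no GTAAACA either. GGGCGG, the GC box, was found 3 times in each of the later Dmd windows, in none of the other windows of measured members, and in 33.1% of all windows. No window held more than 1 kind of these motifs, and the matches within a window did not overlap. These are matches of letters, and which start the probe sets of Sgcd and Dmd measure was not tested.

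Sntb1 and Sgcd fell most among the members, and they did so at different times. Sntb1, coding the adaptor β1-syntrophin, fell in P2 and again in P3, to 31.6% of the fed level and then 9.98-fold below it. Sgcd, coding δ-sarcoglycan, overlapped in P2 with the fed rats and fell to 15.7% of the fed level in P3. Sgca, coding α-sarcoglycan, fell in P3 to 59.0% of the fed level, and Dmd and Utrn did not pass the test in any comparison. Across the groups, 3 of the 5 members (Sgca, Sgcd and Sntb1) passed the moderated F test of limma, as did 33.1% of the 14506 genes.

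**Figure D1:**
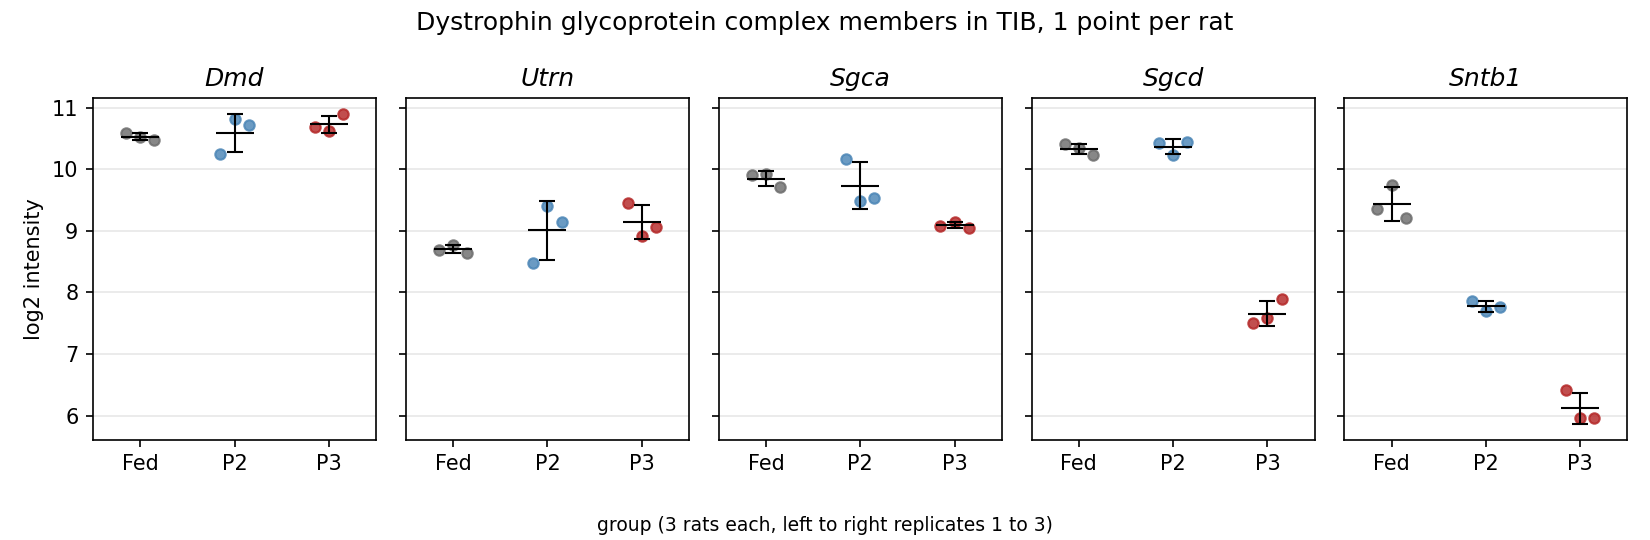
Log2 intensity (y axis) of the 5 measured members in TIB by group (x axis), 1 point per rat, with the group mean and its SD (3 rats) as a line and bars. Sntb1 steps down at P2 and at P3, from a mean of 9.43 to 7.77 and 6.12, whereas Sgcd leaves its fed level in P3 rats, which lie between 7.50 and 7.89.

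Dystrophin itself, coded by Dmd, had log2 intensities of 10.60, 10.52 and 10.48 in Fed, of 10.24, 10.82 and 10.72 in P2 and of 10.68, 10.62 and 10.89 in P3. The P2 rats lay on both sides of the fed ones, and the P3 rats lay just above the fed ones without overlap. The log2 fold change was 0.07 ± 0.15 (standard error of the fit, here and below) in P2 versus Fed (limma, adjusted p = 0.853) and 0.20 ± 0.15 in P3 versus Fed (adjusted p = 0.368), with a 95% confidence interval of -0.13 to 0.53 for the latter. Without P2 1 the P2 value was 0.24 (adjusted p = 0.168), and without P2 2 it was -0.05. A decrease of the Dmd transcript in P3 by more than 0.13 on the log2 scale is outside the interval. The annotation ties the probe set to several Dmd transcripts, so a change of 1 isoform could be hidden in it.

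Utrn, coding utrophin, had log2 intensities of 8.70, 8.77 and 8.64 in Fed, of 8.48, 9.41 and 9.14 in P2 and of 9.45, 8.92 and 9.07 in P3. All P3 rats and P2 2 and P2 3 were above the fed rats, and P2 1 was below them. The log2 fold changes were 0.31 ± 0.22 in P2 (limma, adjusted p = 0.496) and 0.44 ± 0.22 in P3 (adjusted p = 0.187), and the interval in P3 ran from -0.06 to 0.95. Without P2 1, Utrn was called higher in P3 versus Fed (0.44, adjusted p = 0.0432), whereas its P2 value of 0.57 was not called (adjusted p = 0.0526). Without P2 2 the P2 value was 0.10 (adjusted p = 0.853). Over the 8 other arrays left out in turn no call of Utrn appeared.

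Among the sarcoglycans, Sgcd had log2 intensities of 10.41, 10.34 and 10.24 in Fed, of 10.43, 10.23 and 10.44 in P2 and of 7.50, 7.58 and 7.89 in P3. The fed and P2 rats overlapped, and the P3 rats were far below both. Sgcd was 6.37-fold lower in P3 than in Fed (log2 fold change -2.67 ± 0.11, limma, adjusted p = 6.29e-07) and 6.54-fold below P2 (-2.71 ± 0.11, adjusted p = 3.48e-06). In P2 versus Fed the value was 0.04 ± 0.11 (adjusted p = 0.899), with a 95% interval of -0.22 to 0.29. Of the 14506 genes, 19 fell by as much or more from P2 to P3, Sgcd included.

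Sgca had log2 intensities of 9.91, 9.93 and 9.72 in Fed, of 10.17, 9.49 and 9.53 in P2 and of 9.08, 9.14 and 9.05 in P3. The P3 rats lay close together below all others, and the P2 rats were split, with P2 1 above and P2 2 and P2 3 below the fed rats. The log2 fold change was -0.76 ± 0.17 in P3 versus Fed (limma, adjusted p = 0.00719) and -0.64 ± 0.17 in P3 versus P2 (adjusted p = 0.0286). Without P2 1 the P3 versus P2 value was -0.42 (adjusted p = 0.0125). The call was lost without P3 1 (adjusted p = 0.0796), P3 2 (adjusted p = 0.0674) or P3 3 (adjusted p = 0.0912). In P2 versus Fed, Sgca had a value of -0.12 ± 0.17 (adjusted p = 0.741). Without P2 1 this was -0.34 and was called (adjusted p = 0.0399), and without P2 2 or P2 3 it was -0.00025 or -0.02. The P3 versus Fed decrease of Sgca did not pass the analysis of variance and Tukey test of the methods at their threshold of 0.001.

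The adaptor gene Sntb1 had log2 intensities of 9.36, 9.74 and 9.20 in Fed, of 7.87, 7.70 and 7.76 in P2 and of 6.42, 5.97 and 5.96 in P3. No rat of a group reached into the range of another group. From Fed to P2 the log2 fold change was -1.66 ± 0.16 (limma, adjusted p = 0.000543), and from P2 to P3 it was -1.66 ± 0.16 again (adjusted p = 0.000174), 3.16-fold at each step. P3 was 9.98-fold below Fed (-3.32 ± 0.16, adjusted p = 1.35e-06). The Sntb1 values in P3 lay close to the array medians of 5.80 to 5.90, and no detection call was used. Only 23 of the 14506 genes, Sntb1 included, had a P2 versus Fed value this low, and 20 a P3 versus Fed value this low.

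Counted by comparison, 1 of the 5 members (Sntb1) was lower in P2 versus Fed, where limma called 5.57% of all genes lower and 12.6% in either direction, and no member was higher (0 at an unadjusted p under 0.05, and 0 with the Tukey test). In P3 versus Fed, 3 of 5 were lower beside 17.1% of all genes (35.3% in either direction), and in P3 versus P2 the same 3, Sgca, Sgcd and Sntb1, beside 10.4% (21.8% in either direction). No member was higher in these comparisons either (0 at an unadjusted p under 0.05 in both). The median log2 fold change of the 5 members was 0.04 in P2 versus Fed, where that of all genes was 0.01, and -0.76 in P3 versus Fed, where that of all genes was -0.01. P2 and P3 were compared with the same 3 fed rats. With 5 genes these counts describe the members and show nothing particular to the complex.

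The members also varied within groups. P2 1 was 0.35 below the P2 mean for Dmd and 0.53 below it for Utrn on the log2 scale, and 0.44 above it for Sgca. For Sgcd and Sntb1 it deviated from the mean by 0.06 and 0.09. After subtraction of group means, Pearson's r over the 9 arrays was 0.77 between Dmd and Utrn, -0.85 between Dmd and Sgca and -0.80 between Utrn and Sgca. P2 1 had the largest deviation of each of these 3 genes. Without it, over 8 arrays with the group means taken again, r was 0.15, -0.10 and -0.08 for the same pairs, so the values rest on this rat. Between Sgcd and Sntb1 r was -0.19 with P2 1 and -0.24 without it.

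**Figure D2:**
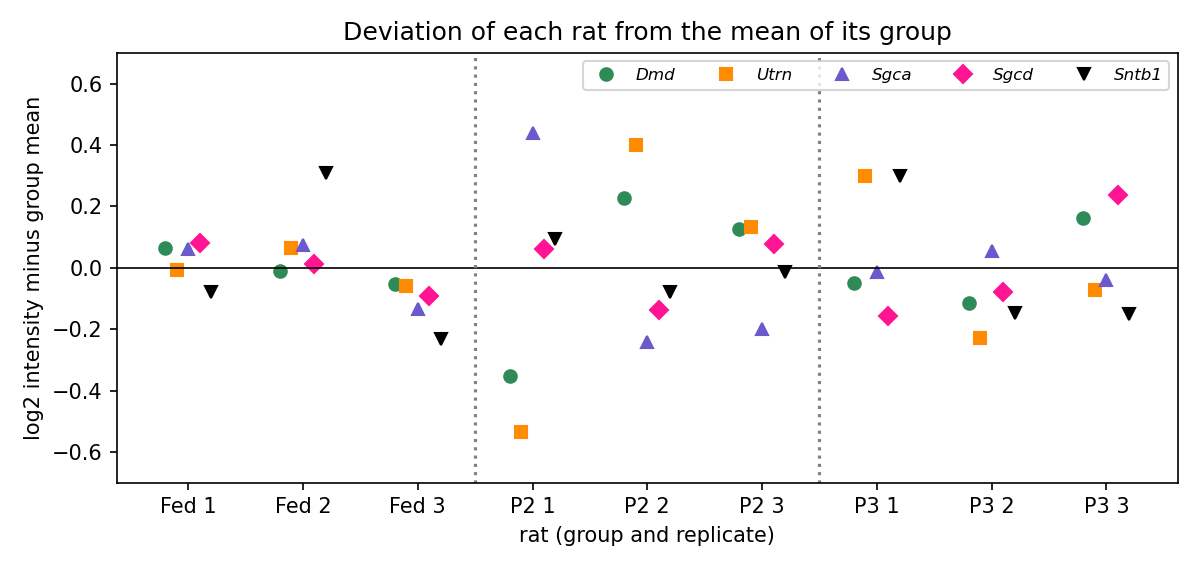
Deviation of each rat's log2 intensity from the mean of its group (y axis) for the 5 members, with the 9 rats on the x axis. P2 1 has Utrn at -0.53, Dmd at -0.35 and Sgca at 0.44, while Sgcd and Sntb1 of this rat lie within 0.09 of the mean.

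Genes with the pattern most like a called member were sought by Pearson's r of the log2 values over the 9 arrays, among 14502 other genes with any variation. Nearest to Sgcd were Cand2, a regulator of cullin ubiquitin ligases in muscle (r = 0.993), Pgm1, the phosphoglucomutase of glycogen metabolism (0.991), and Tmem109 (0.991). Nearest to Sntb1 were Miga2, a protein of mitochondrial fusion (0.995), and Coq7 and Coq9, of coenzyme Q synthesis (0.995 and 0.994). For Sgca they were Apobec2, a muscle protein of the cytidine deaminase family (0.974), Banf1, a chromatin protein of the nuclear envelope (0.969), and Timm23, of mitochondrial protein import (0.969). An r above 0.95 was shared by 180 genes for Sgcd, 392 for Sntb1 and 36 for Sgca. All points share the step between the groups, so a high r shows a like order of the group means and little else.

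Beyond the members, 8 of 11 other genes of the complex were measured. Sspn, coding sarcospan of the sarcoglycan subcomplex, had log2 intensities of 9.26, 9.17 and 8.85 in Fed, of 8.68, 8.92 and 8.76 in P2 and of 8.42, 8.40 and 8.20 in P3. The P3 rats lay below all others, and the fed and P2 rats overlapped. Sspn fell in P3 versus Fed by 0.75 ± 0.12 on the log2 scale (limma, adjusted p = 0.00126). Nos1, coding the neuronal nitric oxide synthase that syntrophin anchors, moved the other way, with 8.01, 7.93 and 8.34 in Fed, 7.90, 8.89 and 8.67 in P2 and 9.34, 9.29 and 9.41 in P3. The P3 rats exceeded all others, and P2 2 and P2 3 the fed ones. The log2 fold change of Nos1 was 1.25 ± 0.23 in P3 versus Fed (adjusted p = 0.00253), and its P2 value of 0.39 ± 0.23 (adjusted p = 0.37) became a call of 0.68 without P2 1 (adjusted p = 0.0156) and was 0.19 without P2 2 (adjusted p = 0.708).

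The P3 versus P2 values were -0.45 ± 0.12 for Sspn (limma, adjusted p = 0.0338) and 0.86 ± 0.23 for Nos1 (adjusted p = 0.0297). Without P2 1 that of Nos1 was 0.57 (adjusted p = 0.0215). Both calls were lost when P3 1, P3 2, P3 3 or P2 3 was left out, with adjusted p up to 0.122 for Sspn and 0.0949 for Nos1 over all arrays left out in turn. The call of Sspn was also lost without Fed 2 (adjusted p = 0.052) or P2 2 (adjusted p = 0.105). The P3 versus P2 value of the ε-sarcoglycan gene Sgce was -0.35 and not called (limma, adjusted p = 0.0858). Without P2 1 it became a call of -0.46 (adjusted p = 0.0207). The ε-sarcoglycan gene Sgce, the dystrobrevin gene Dtnb and the dystrophin-related gene Drp2 had P3 versus Fed values of -0.11 ± 0.12, -0.39 ± 0.16 and 0.34 ± 0.15 and were not called. Sgcz, Sntg1 and Sntg2, coding ζ-sarcoglycan and both γ-syntrophins, had mean log2 intensities of 3.13, 3.76 and 4.19 in Fed, below every array's median, and P3 versus Fed values of -0.01 ± 0.07, 0.04 ± 0.08 and -0.14 ± 0.07. So 1 of the 8 was lower and 1 higher in P3 versus Fed, beside 17.1% and 18.2% of all genes. In P2 versus Fed none passed limma (1 did without P2 1, and 2 were lower at an unadjusted p under 0.05, and 0 passed the Tukey test of the methods).

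**Figure D3:**
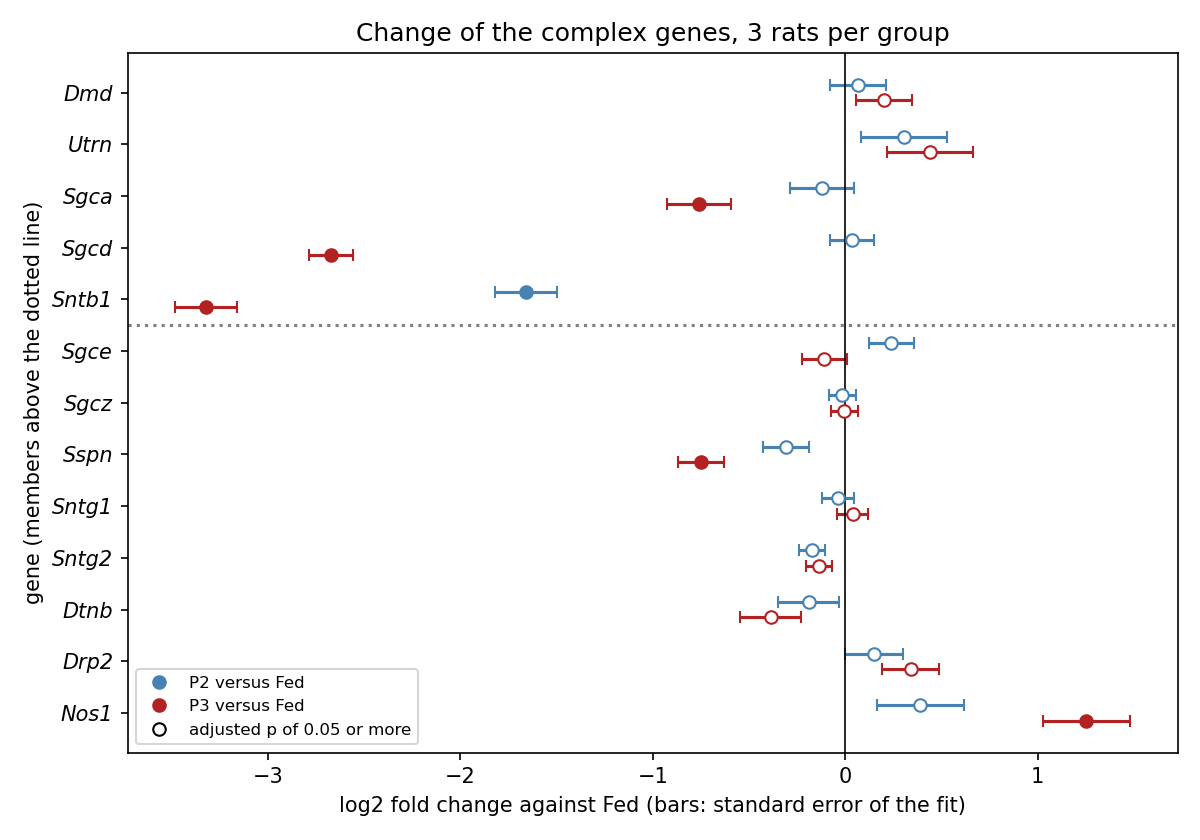
Log2 fold change against Fed (x axis, bars are the standard error of the fit) for the 5 members and 8 other genes of the complex (y axis), in P2 (blue) and P3 (red) with 3 rats per group; open circles did not pass limma at an adjusted p of 0.05. Sntb1 (-1.66) is the filled blue circle, and in P3 Sntb1, Sgcd, Sgca and Sspn lie filled to the left and Nos1 to the right at 1.25.

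Dystroglycan holds laminin through a sugar chain, and 13 of 19 listed genes of its synthesis were measured. Dpm1, of the synthase of the mannose donor, had a log2 fold change of 0.67 ± 0.10 in P2 (limma, adjusted p = 0.00442) and of 1.57 ± 0.10 in P3 (adjusted p = 5.87e-06), a rise at both times. Pomt2, of the O-mannosyltransferase that starts the chain, rose in P3 by 0.86 ± 0.11. Pomgnt2 and B4gat1, which extend it, fell by 0.65 ± 0.11 and 0.58 ± 0.12 in P3. The median over the 13 was 0.00 in P3 versus Fed. In all, 2 of 13 rose and 3 fell between Fed and P3, beside 18.2% and 17.1% of all genes. The remaining one, Dolk, coding dolichol kinase, fell by 0.39 ± 0.11 (adjusted p = 0.0283), a call lost without Fed 2, Fed 3, P3 1 or P3 3 (adjusted p up to 0.103). In P2 versus Fed, 1 was higher, beside 7.07% of all genes, and none was lower (2 at an unadjusted p under 0.05). The count called in P2 was 2 without P2 1 or P3 2.

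Outside the fibre, 7 of 16 listed basement membrane genes were measured. Bgn, coding biglycan, a matrix proteoglycan that binds the complex, fell by 0.91 ± 0.15 in P2 and by 2.00 ± 0.15 in P3 versus Fed (limma, adjusted p = 1.4e-05). Col4a1, a chain of type IV collagen, fell by 0.98 ± 0.18 and 1.38 ± 0.18, and Nid2, a nidogen that links laminin to collagen, by 0.68 ± 0.15 and 1.40 ± 0.15. The P2 call of Nid2 (adjusted p = 0.0259) was lost without P2 3 or any 1 fed rat, with an adjusted p of up to 0.0913. For Lamc1, the laminin γ1 chain, the P3 value was -0.82 ± 0.17 (adjusted p = 0.00541). In P3 versus Fed 4 of 7 were lower, beside 17.1% of all genes, and in P2 3 of 7, beside 5.57%. None was higher in either (0 at an unadjusted p under 0.05 in both). Markers of fibro-adipogenic cells, the main source of matrix, moved as well: 5 of 8 were lower in P3 versus Fed and none was higher (1 at an unadjusted p under 0.05), with Col1a1 at -4.18 ± 0.57 and Col3a1 at -3.81 ± 0.36. Pdgfra, Dcn and Dpp4 were not called in P3, at -0.39 ± 0.29, 0.39 ± 0.15 and -0.21 ± 0.19. The summed linear intensity of the 8 went from 15211 to 16948 in Fed to 6535 to 12317 in P2 and 4345 to 6831 in P3. Their part in the values of the basement membrane genes was not tested.

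The integrin α7β1 is the other laminin receptor of the fibre, and 6 of 7 genes of its adhesion were measured. Itgb1bp2, coding melusin, a muscle protein that binds the β1 integrin tail, had log2 intensities of 8.56, 8.55 and 8.58 in Fed, of 7.00, 7.37 and 6.72 in P2 and of 5.85, 5.50 and 5.42 in P3. As with Sntb1, the groups did not overlap and stepped down in the order Fed, P2, P3. The log2 fold changes versus Fed were -1.53 ± 0.16 in P2 (limma, adjusted p = 0.000867) and -2.97 ± 0.16 in P3 (adjusted p = 2.6e-06). Cd151, a tetraspanin, fell by 0.86 ± 0.12 and Itga7, the α7 subunit, by 0.69 ± 0.13 in P3. The β1 subunit Itgb1 had a P3 value of -0.23 ± 0.12 (adjusted p = 0.207). Thus 3 of 6 were lower in P3 and 1 in P2, beside 17.1% and 5.57% of all genes. None was higher (0 at an unadjusted p under 0.05 in both).

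In the costamere, the lattice that ties the sarcomere to the membrane, 13 of 16 listed genes were measured. Ank1, an ankyrin, fell by 0.91 ± 0.13 in P2 and by 2.07 ± 0.13 in P3 versus Fed (limma, adjusted p = 6.27e-06). Sync, coding syncoilin, an intermediate filament protein that binds dystrobrevin, fell by 0.67 ± 0.11 and 1.86 ± 0.11. Ank3, coding ankyrin-G, an anchor of dystrophin, fell in P3 by 1.45 ± 0.14, with a P2 value of -0.27 ± 0.14 (adjusted p = 0.3), and Actg1, the cytoplasmic γ-actin, fell by 1.34 ± 0.16 in P3. Chosen after its values were seen, Tln1, coding talin, was the sole member of this list that rose in P3 versus Fed (0.74 ± 0.17, adjusted p = 0.00888). The counts were 7 lower and 1 higher of 13 in P3 and 5 lower in P2, beside 17.1%, 18.2% and 5.57% of all genes. The P2 count became 2 without Fed 2 and 3 without Fed 1, Fed 3, P2 1 or P2 3.

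Caveolae and membrane repair gave the largest share of decreases in P3 versus Fed among these 7 lists in the main fit, 8 of 10 measured genes of 12 listed. Over the arrays left out in turn, the count ran from 6 to 8. Without Fed 3, P3 2 or P3 3, Cavin1 and Anxa1 both lost their calls (limma, adjusted p up to 0.0885 and 0.124 over all arrays left out). Trim72, coding the membrane repair protein MG53, fell by 1.34 ± 0.12 in P2 (limma, adjusted p = 0.000433) and by 2.50 ± 0.12 in P3 (adjusted p = 1.45e-06). Cav3, the caveolin of muscle that binds dystroglycan, fell by 2.18 ± 0.21 in P3, with a P2 value of -0.70 ± 0.21 (adjusted p = 0.0806). Anxa2 and Anxa6, annexins that bind membranes in the presence of calcium, fell by 0.92 ± 0.15 and 0.91 ± 0.11 in P3. In P2, 3 of 10 were lower, beside 5.57% of all genes (17.1% in P3). None was higher in either phase (0 at an unadjusted p under 0.05 in both).

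**Figure D4:**
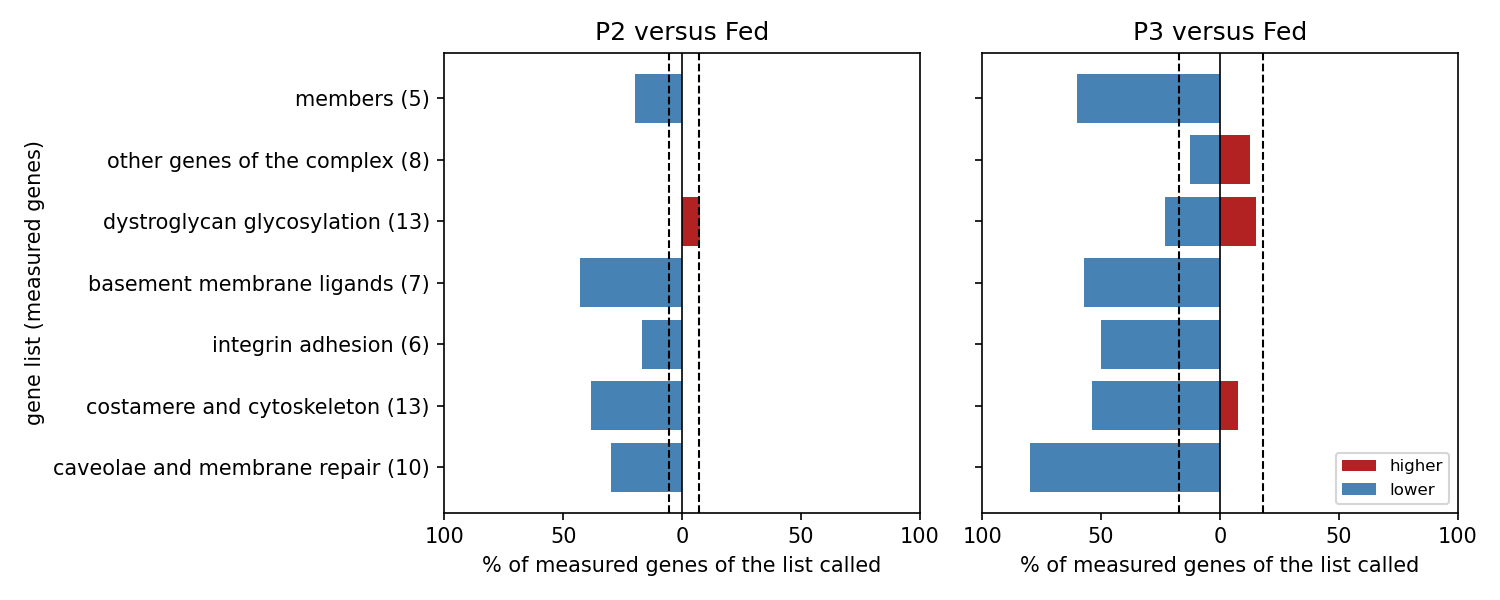
Share of the measured genes of each list (y axis, number of measured genes in parentheses) that limma called lower (left, blue) or higher (right, red) in P2 versus Fed and P3 versus Fed, in percent on the x axis. Dashed lines mark the shares over all genes, 5.57% lower and 7.07% higher in P2 and 17.1% lower and 18.2% higher in P3.

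Markers of some other parts of the tissue fell in P3, and those of others did not. Of all genes, limma called 17.1% lower and 18.2% higher in P3 versus Fed, and 5.57% lower and 7.07% higher in P2 versus Fed. These shares stand beside each marker count that follows. At the neuromuscular junction, where utrophin is concentrated, 7 of 11 markers were lower and 1 higher in P3 versus Fed by limma. In P2, 3 of them were lower. The acetylcholinesterase gene Ache was at -3.08 ± 0.10 and Dok7, of the receptor clustering pathway, at -1.41 ± 0.17 in P3. The marker that was higher in P3, Lrp4, was at 0.71 (limma, adjusted p = 0.0087) and was named after its values were seen. The summed linear intensity of the 11 markers was 1902 to 1998 in Fed, 1425 to 1592 in P2 and 982.1 to 1022 in P3. Slow fibre markers were lower in P3 for 6 of 6 and in P2 for 3 of 6, with sums of 10262 to 11572 in Fed, 4514 to 8057 in P2 and 3445 to 5387 in P3. For satellite cells, 2 of 4 markers were lower in P3, and for smooth muscle and pericytes 5 of 7. The sums of endothelial markers overlapped between all groups (2945 to 3121 in Fed, 2683 to 4401 in P2 and 2964 to 4860 in P3), as did those of macrophages and Schwann cells. In P3 versus Fed, 1 of 7 endothelial markers was higher, Pecam1 (0.91 ± 0.17, adjusted p = 0.00326), and 1 of 7 macrophage markers, Cd163 (1.40 ± 0.33, adjusted p = 0.0108), and none of either list was lower by limma (1 endothelial and 0 macrophage markers at an unadjusted p under 0.05). No Schwann cell marker was called (0 of 4, and 0 at an unadjusted p under 0.05). Adipocyte markers were higher in P2 for 2 of 5 and by limma in P3 for none (0 at an unadjusted p under 0.05). Left out in turn, arrays took several counts to 1: slow fibres in P2 without Fed 2, Fed 3, P2 1, P2 3 or P3 3, adipocytes in P2 without P3 2 or any 1 fed rat, and satellite cells in P3 without Fed 2 or P3 3. Without Fed 1 or Fed 3 smooth muscle and pericytes had 3 lower in P3, and for fast fibres 1 marker was called in P2 without P2 2 and in P3 without P2 1 or P2 2. The part of these cells and fibres in the values of Sntb1, Sgcd and Sgca was not tested.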

How the data were processed

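The authors extracted RNA from TIB of 3 fed, 3 P2 and 3 P3 rats, hybridised it to Affymetrix Rat Gene 1.0 ST arrays and summarized probes in Expression Console 1.1 by sketch quantile normalization and median polish, as in RMA. The deposited values are thus log2 intensities, relative to the whole array, and were used as they are. No background or detection call was used here. Low values, such as those of Sntb1 and Itgb1bp2 in P3, were therefore not told apart from background. Precision is limited by 3 arrays per group.

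All 29215 probe sets were tested with limma 3.58.1 in R 4.3.3: group means were fitted to all 9 arrays, moderated with eBayes, and p-values of each comparison adjusted by Benjamini-Hochberg, with a call at an adjusted p under 0.05. A symbol of its own was given to 15310 probe sets, several to 323 and none to 13582, and for a gene with several probe sets that of the highest mean was taken. The method was also run on simulated data with independent noise and few probe sets changed, in P3 alone. That setting differs from these data, so it does not test the calls made here. Figures used Python 3.11.15 and matplotlib 3.10.9. Promoter windows are RefSeq's, on GRCr8.

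The members, the 17 gene lists and the alternatives were chosen with earlier results of these data known. All members and measured genes of the complex are named, with up to 4 called genes of each other list and 2 of some marker lists by their change in P3 versus Fed, and the 3 genes most like each called member. Replicate numbers did not pair the rats. Alternatives were another quantile step, median subtraction, a mean log2 of at least 5, probe sets with 1 symbol, array weights, trend and robust moderation, a replicate block, a fit of the compared groups alone, stricter thresholds (an adjusted p under 0.01, or a change of at least 1.5-fold), the analysis of variance and Tukey test of the methods at 0.001 or adjusted, gene means, and each array left out. For lists they were added after the data were seen, as were the correlations without P2 1.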

Additional observations from a re-analysis of the deposited data

Results flagged for a closer look

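The change from Fed differed between P2 and P3 for 3 of the 5 members by limma's direct comparison of P3 with P2. The difference was -2.71 ± 0.11 on the log2 scale for Sgcd (adjusted p = 3.48e-06), with all 3 P3 rats below all 3 P2 rats. For Sntb1 it was -1.66 ± 0.16 (adjusted p = 0.000174), likewise in 3 of 3 rats. For Sgca it was -0.64 ± 0.17 (adjusted p = 0.0286), also in 3 of 3 rats, and over the 9 arrays left out in turn it ran from -0.76 to -0.42 with an adjusted p of 0.0125 to 0.0912. The smallest difference, -0.42, came without P2 1.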

How the results depend on the processing

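The decreases of Sntb1 in all comparisons and of Sgcd in P3 versus Fed and P3 versus P2 kept their direction and their call in each of 22 alternatives, with log2 fold changes between -3.47 and -3.16 for Sntb1 and between -2.79 and -2.59 for Sgcd in P3 versus Fed. With each array left out in turn, 1 to 2 members were called in P2 versus Fed, 3 to 4 in P3 versus Fed, 2 to 3 in P3 versus P2 and 2 to 4 by the F test. The count of 2 in P2 came without P2 1, when Sgca was called. Sgca lost its P3 versus Fed call with the Tukey test at 0.001 and with its Benjamini-Hochberg adjustment (adjusted p = 0.079), and its P3 versus P2 call with both, with an adjusted p under 0.01 as the threshold, with only the groups compared (adjusted p = 0.0823) and without any 1 of the P3 arrays. Values that were not called changed sign when arrays were left out: Dmd ran from -0.049 to 0.24 in P2 versus Fed (lowest without P2 2) and from -0.043 to 0.25 in P3 versus P2 (lowest without P2 1), Sgcd from -0.0088 to 0.11 in P2 versus Fed (lowest without Fed 3) and Utrn from -0.13 to 0.34 in P3 versus P2 (lowest without P2 1). The causes were not tested.

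Replicate numbers are shared by the groups, but deviations of same-numbered rats correlated at -0.24 to 0.12, over 0.1 in 2 of 9 pairs, so they were not taken as pairs. The replicate block left 1, 3 and 3 members called in the 3 comparisons and moved the calls over all probe sets from 2711 to 1983, from 8538 to 7930 and from 4680 to 4035. Of 396 counts under alternatives for the lists other than members and markers, 323 stayed within 1.5 times. Marker counts moved too. In P2 versus Fed they ran from 0 to 5 for slow fibres (3 as reported) and from 0 to 4 for adipocytes (2). For fibro-adipogenic cells they ran from 0 to 3 (1 in the main fit), whereas for satellite cells they stayed at 0. Marker counts in P3 versus Fed ran from 1 to 6 for slow fibres (6 as reported) and from 1 to 6 for fibro-adipogenic cells (5). They ran from 0 to 5 for smooth muscle and pericytes (5) and from 0 to 3 for satellite cells (2). For the neuromuscular junction they ran from 4 to 8 (8, in either direction). In P3 versus Fed the lowest and highest counts were 3 and 9 for caveolae and repair (8 as reported), 5 and 8 for the costamere (8), 2 and 6 for the basement membrane (4), 1 and 4 for integrin adhesion (3), 2 and 6 for glycosylation (5) and 0 and 2 for the other genes of the complex (2). In P2 versus Fed they were 1 and 4, 0 and 6, 0 and 4, 1 and 2, 0 and 2, and 0 and 1, in the same order. Over all probe sets, the methods' analysis of variance and Tukey test called 660, 2813 and 1419 at 0.001 and 713, 5222 and 2261 after Benjamini-Hochberg adjustment. With 3 arrays per group, the intervals of Dmd and Utrn include 0 in every comparison.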
